A study of Mus musculus with 10 samples.

Results

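The genes described here are 40 mouse genes of the cell division cycle. They were chosen by name from 41813 genes with a measured value, with earlier results of these data known. They fall into 15 genes of S phase and DNA replication, 14 genes of mitosis, 7 G1 cyclins and kinases, and 4 genes of cyclin-dependent kinase (CDK) inhibitors and the retinoblastoma protein. All 40 were found in the expression tables by Ensembl gene identifier. Among the 39 that could be tested, 12 were higher and 6 were lower in activated than in non-activated dendritic cells. These were 30.8% and 15.4%, against 15.9% and 11.7% of all tested genes. The test behind these calls had no replicate term. With the replicate number as a block, Bub1 also passed as higher and Ccna2 and Cdkn1b as lower. More of all genes passed there as well. The D cyclin Ccnd2, the replicative helicase subunit Mcm3, the proliferation marker Mki67 and the spindle protein Tpx2 rose, whereas the topoisomerase Top2a, the CDK4 and CDK6 inhibitor Cdkn2c and Rb1 fell.

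The cells were mouse bone marrow-derived dendritic cells with CD11c on the surface and high MHC class II. Bulk RNA-seq was available for 3 activated and 3 non-activated libraries; 4 ATAC-seq samples (2 of each group) were not analysed here. The series' design text says that all the dendritic cells received LPS, that one group was pulsed with the peptide OVA323-339 and the other was not, and that both were then kept for 24 h with CD4+ OT-II T cells, which carry a receptor for that peptide. The per-sample labels instead give LPS stimulation to the activated group and no stimulation to the non-activated group. The words activated and non-activated are therefore used as in the sample titles, and the contrast may be one of peptide or of LPS. Neither strain, sex nor age of the mice is given. Whether each replicate was its own animal or culture is not stated, and p-values then measure only the spread between these libraries, which may be technical.

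In a dividing cell, D cyclins bind CDK4 and CDK6 in G1 and phosphorylate the retinoblastoma protein, which releases E2F transcription factors. E2F factors then switch on genes of DNA synthesis, among them the 6 subunits of the MCM helicase that is loaded at origins by Cdc6 and Cdt1. Later, cyclin A2 and the B cyclins with CDK1 drive entry into mitosis, under promoters that carry CHR and CCAAT elements, and inhibitors such as p21, p27 and p18 hold the kinases back. Dendritic cells that mature in culture are known mostly as cells that have left the cycle, while their bone marrow precursors divide under growth factors.

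Promoter sequence was at hand for 33 of the 40 genes, as windows of 300 bases from 250 before to 50 after an annotated start (RefSeq, GRCm38.p6), with 2 starts for 6 of the genes and 39 windows in all. No window was found for Mcm4, Rb1, Aurkb, Ccna2, Ccnd2, Ccnd1 and Tpx2. A pair of MCM genes and a pair of mitosis genes are printed because within each pair one gene rose and the other fell in activated cells. The windows, all on the minus strand and written 5′ to 3′, lie at chr1:20820263-20820562 for Mcm3, chr1:128359656-128359955 for Mcm6, chr7:135716330-135716629 for Mki67 and chr11:99024140-99024439 for Top2a. Capitals mark E2F octamers, CHR hexamers and CCAAT pentamers on either strand.
Mcm3: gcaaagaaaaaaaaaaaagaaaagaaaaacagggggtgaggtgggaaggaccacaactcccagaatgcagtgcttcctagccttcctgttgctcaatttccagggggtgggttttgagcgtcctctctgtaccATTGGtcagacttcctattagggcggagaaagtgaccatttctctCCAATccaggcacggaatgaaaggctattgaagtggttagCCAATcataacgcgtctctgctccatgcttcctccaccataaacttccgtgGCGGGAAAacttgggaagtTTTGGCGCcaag
Mcm6: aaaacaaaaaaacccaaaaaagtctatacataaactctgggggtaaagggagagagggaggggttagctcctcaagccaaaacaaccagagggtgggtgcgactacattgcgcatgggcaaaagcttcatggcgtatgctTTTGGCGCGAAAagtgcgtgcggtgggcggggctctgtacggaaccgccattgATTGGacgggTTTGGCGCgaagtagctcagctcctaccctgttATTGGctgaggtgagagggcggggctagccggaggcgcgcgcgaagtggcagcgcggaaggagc
Mki67: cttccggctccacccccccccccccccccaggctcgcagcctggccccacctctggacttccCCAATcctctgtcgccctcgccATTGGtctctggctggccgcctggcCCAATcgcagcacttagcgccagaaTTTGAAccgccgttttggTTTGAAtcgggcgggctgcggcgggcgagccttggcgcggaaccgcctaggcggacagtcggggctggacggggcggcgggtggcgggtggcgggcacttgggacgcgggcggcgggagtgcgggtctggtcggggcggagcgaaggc
Top2a: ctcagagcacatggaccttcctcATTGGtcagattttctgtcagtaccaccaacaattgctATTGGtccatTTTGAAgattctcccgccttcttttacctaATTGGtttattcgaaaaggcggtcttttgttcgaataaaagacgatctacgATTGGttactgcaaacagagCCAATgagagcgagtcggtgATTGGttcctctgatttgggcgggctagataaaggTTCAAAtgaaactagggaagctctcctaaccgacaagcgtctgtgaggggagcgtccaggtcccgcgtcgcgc

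The E2F octamers searched were TTTCCCGC, TTTGGCGC, TTTCGCGC and TTTGCCGC, on both strands. A gene was counted as holding a motif where any of its windows did. E2F octamers occurred in 2.60% of all 27025 genes with a window, in 8 of 14 S phase genes (Mcm3, Mcm5, Mcm6, Mcm7, Cdc6, Cdt1, Uhrf1 and E2f2), in 1 of 11 mitosis genes (Cdk1), and in Cdk2. The CHR hexamer TTTGAA occurred in 20.2% of all genes, in 8 of 11 mitosis genes (Mki67, Top2a, Cdk1, Ccnb2, Aurka, Bub1b, Plk1 and Cdc20) and in 2 of 14 S phase genes (Mcm2 and E2f2). All 10 of these genes also held the pentamer CCAAT in the same window, on one strand or the other, a combination found in 7.97% of all genes; CCAAT itself was in 41.1% of all genes and in 24 of the 33. By direction of change, an E2F octamer was held by 3 of 9 genes that were higher, 3 of 5 that were lower and 4 of 18 that passed in neither direction, leaving out the untested Ccnb2. For the CHR hexamer these counts were 1 of 9, 2 of 5 and 6 of 18, and for CCAAT 5 of 9, 5 of 5 and 13 of 18; none of these differences was tested. Mcm3 and Mcm6 both hold E2F octamers, 2 and 3 of them with some overlapping in Mcm6, and Mki67 and Top2a each hold 2 CHR hexamers. A match describes these letters in the window, not a bound site.

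Levels of the 40 genes differed by role. On deposited TPM, which divides by transcript length and so allows genes to be compared, 3 genes averaged above 100 TPM over the 6 libraries: Cdkn1a, encoding the CDK inhibitor p21, at 646 TPM, Ccnd2 at 555 TPM, and Pcna, the sliding clamp of DNA polymerase, at 110 TPM. Cdk4 followed at 78.5 TPM and Cdkn1b, encoding p27, at 60.3 TPM. The 14 mitosis genes had a median of only 1.83 TPM (0.157 to 9.80 TPM), and 10 of them lay under 3 TPM. The medians were 7.44 TPM for S phase genes, 35.2 TPM for G1 cyclins and kinases and 51.8 TPM for the inhibitors and Rb1. Cyclins of the later cycle were among the lowest, with Ccnb2 lowest of all 40. In such bulk samples, fewer cells of a type and less RNA per cell cannot be told apart.

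**Figure D1:**
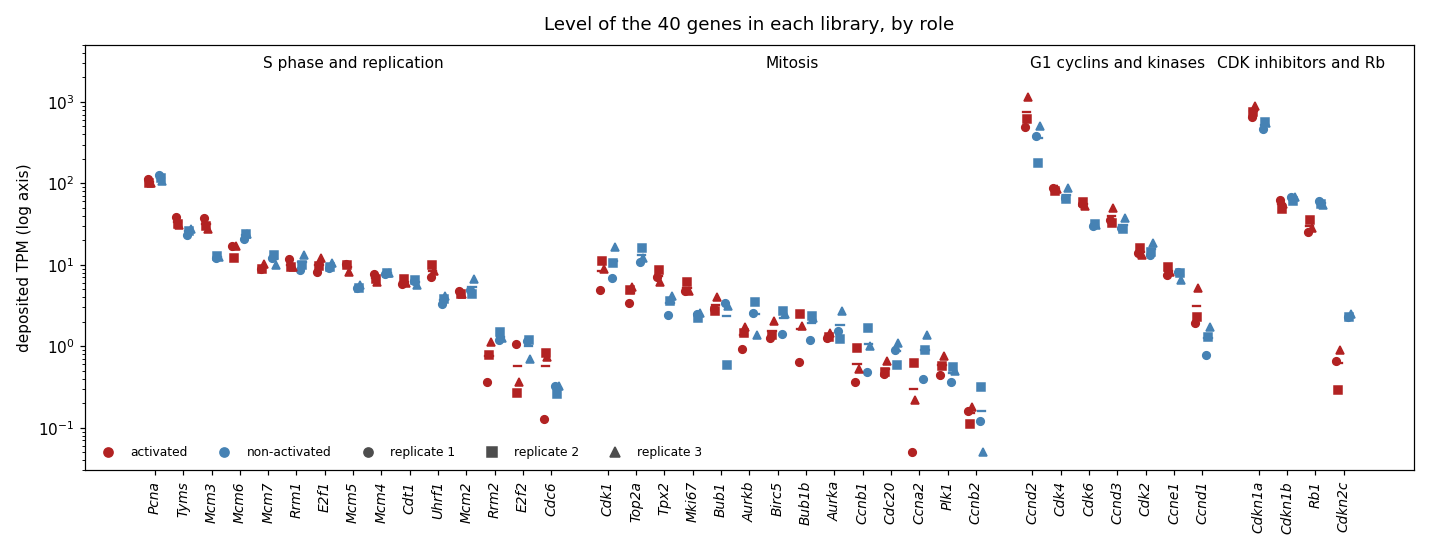
Deposited TPM (log axis) of the 40 genes in each of the 3 activated (red, left of each pair) and 3 non-activated (blue, right) libraries, grouped by role and ordered by mean level; short lines are group means and symbols mark the replicate number. Cdkn1a, Ccnd2 and Pcna stand above 100 TPM on average, whereas no mitosis gene averages above 10 TPM.

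The comparison of activated with non-activated libraries used edgeR's quasi-likelihood test over 13946 genes, with a Benjamini-Hochberg adjusted p under 0.05 as the threshold. Library totals were 21338012 to 27404937 counts for the activated group, against 23441520 to 25789923 for the non-activated group. Over all tested genes 27.6% passed, 15.9% higher and 11.7% lower in activated cells, and the CPM values (counts scaled to library size with TMM factors) of the groups did not overlap for 44.7%. Of the 39 tested members 18 passed (46.2%), 12 higher (30.8%) and 6 lower (15.4%). The median log2 fold change of the members was -0.11, against 0.01 for all tested genes. Values of 20 members (51.3%) did not overlap between groups: the 18 that passed, together with Bub1, which was higher in activated libraries, and Aurkb, which was lower. By role, 5 of 7 G1 cyclins and kinases were higher and 0 lower, S phase genes had 4 higher and 3 lower, mitosis genes 2 higher and 1 lower, and the inhibitors with Rb1 1 higher and 2 lower. With the replicate number as a block, mitosis genes had 3 higher and 2 lower, and the inhibitors with Rb1 1 higher and 3 lower. The other roles kept their counts. Differences between roles were not tested. On deposited TPM, tested with limma on log2(TPM + 1), 7 members were higher and 4 lower, and calls over all genes also fell, to 1379 higher and 1038 lower, against 2216 and 1632 on counts. On TPM with no filter on low values Mcm6, Cdkn1a, Tpx2 and E2f2 also lost their calls (limma adjusted p = 0.0857, 0.0842, 0.0611 and 0.407, the highest over their alternatives).

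**Figure D2:**
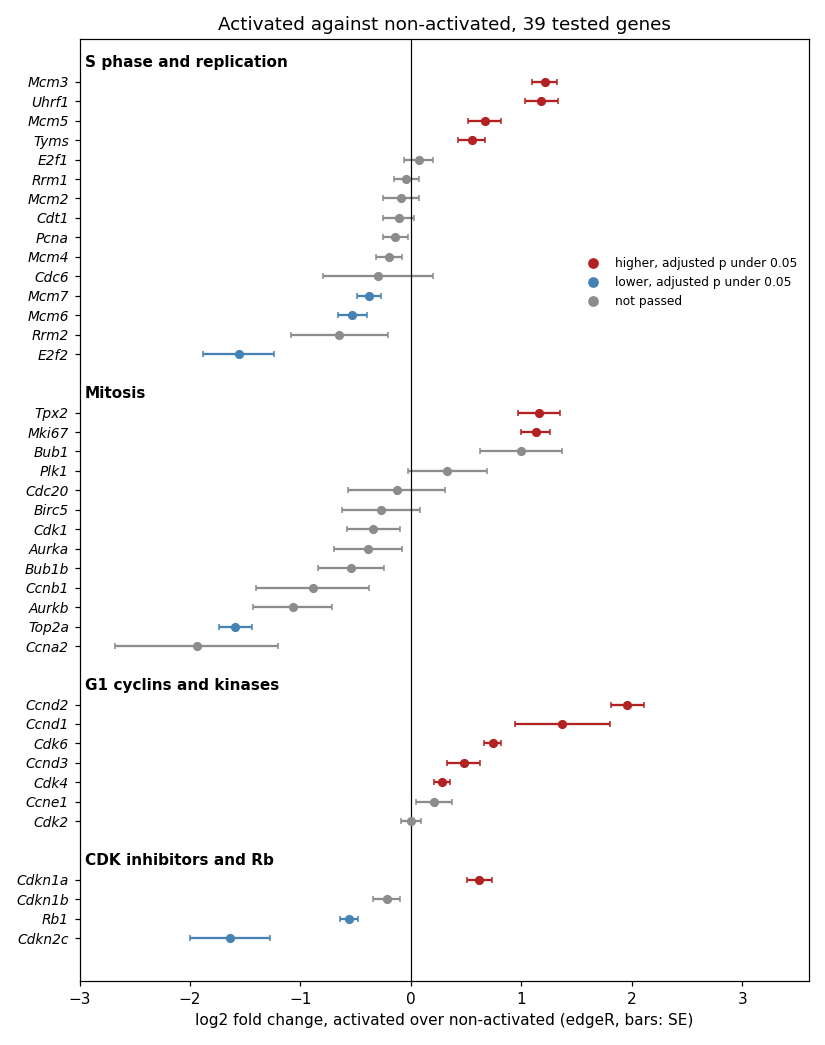
Log2 fold change of activated over non-activated libraries for the 39 tested genes, by role (points, edgeR estimate from 3 libraries a group; bars, SE). Red and blue points passed the adjusted p threshold of 0.05 without a replicate term, as higher (12 genes) and lower (6 genes). Grey points did not pass. Higher genes lead the G1 block, while both directions occur among S phase and mitosis genes.

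Both groups held libraries that stood apart in T cell receptor transcripts. Trac, which encodes the T cell receptor alpha constant region, had 7420, 8.88 and 27.8 CPM in activated libraries 1, 2 and 3, against 7444, 2.73 and 5.11 CPM in non-activated ones. Replicate 1 of each group was thus far above the others, and the count of member calls is also given without both. The T cell list had 3 of 11 testable genes higher in activated cells (Cd247, Lck and Zap70) and 0 lower. That is 27.3% called, against 27.6% of all tested genes. Lck kept its call in all 6 fits without 1 library, Zap70 in 3 and Cd247 in 1. In this list 8 more genes were too low to test, and none was at 0 in either group. With the replicate block Cd6 also passed as higher and Cd28 as lower (edgeR adjusted p = 0.0411 and 0.000115; 0.023 to 0.632 and 0.000115 to 0.354 over the alternatives). Summed CPM of Cd3e, Cd3d, Cd3g and Cd4 was 5.20, 0.834 and 0.653 in activated libraries and 0.533, 0.420 and 0.405 in non-activated ones. B cell markers summed to 2.33 to 4.01 CPM in activated libraries, against 0.761 to 1.30 CPM in non-activated ones, and neutrophil markers to at most 0.568 CPM anywhere. Of 11 dendritic cell markers 6 were higher in activated libraries (Fscn1 5.86-fold, Ccr7 2.82-fold, Irf4 2.46-fold, Zbtb46 2.00-fold, Cd86 1.78-fold and Ciita 1.53-fold) and 0 lower, though Ciita kept its call in 1 of the 6 fits without 1 library. That is 54.5% called, against 27.6% of all tested genes. The 5 others (H2-Aa, Cd74, Itgax, H2-Ab1 and Flt3) did not pass, with log2 fold changes from -0.37 for H2-Aa to -0.01 for Flt3. H2-Aa passed as lower with the replicate block (edgeR adjusted p = 0.0107) and with DESeq2 (adjusted p = 0.0324; 0.0107 to 0.471 over the alternatives). Itgax, encoding CD11c, had 198 to 442 CPM in activated libraries, against 295 to 437 CPM in non-activated libraries. Progenitor markers summed to 51.4, 58.0 and 35.1 CPM in activated libraries, against 93.5, 82.4 and 84.1 CPM in non-activated libraries, with Kit and Gata2 lower and Cd34 higher. Without both replicate 1 libraries, 15 of the 18 members kept their call; Mcm5, Mcm7 and Cdk4 had edgeR adjusted p = 0.0594, 0.0615 and 0.0854 there.

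Among the 15 S phase and replication genes, the helicase subunits moved in both directions. Mcm3 (chr1:20802966-20820312, RefSeq GRCm38.p6 as for all gene positions given), a subunit of the ring that unwinds DNA at replication forks, had 54.5, 44.1 and 42.7 CPM in activated libraries, against 20.5, 20.5 and 20.0 CPM in non-activated ones. The groups were far apart, with the lowest activated library above the highest non-activated one, and the rise was 2.32-fold (log2 fold change 1.21, SE 0.11, edgeR adjusted p = 0.000145). Mcm5 rose as well, at 16.9, 14.9 and 12.0 CPM in activated libraries and 9.14, 8.66 and 9.65 CPM in non-activated ones. The difference was 0.67 on the log2 scale (SE 0.15, edgeR adjusted p = 0.011; 0.0019 to 0.0594 over the alternatives).

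Mcm6 (chr1:128331575-128359705), which sits in the same ring, went the other way, with 33.6, 23.8 and 29.2 CPM in activated libraries, against 41.0, 39.6 and 44.2 CPM in non-activated ones. All activated libraries lay below all non-activated ones (log2 fold change -0.53, SE 0.13, edgeR adjusted p = 0.0162). Leaving out non-activated replicate 3 ended the call (edgeR adjusted p = 0.0646; 0.00209 to 0.0857 over the alternatives). Mcm7 had 11.1, 9.66 and 10.6 CPM in activated libraries, against 13.4, 13.1 and 14.3 CPM in non-activated libraries. These counts did not overlap (log2 fold change -0.38, edgeR adjusted p = 0.039), but its call was kept only in 1 of 6 fits that left out 1 library, that without activated replicate 1 (0.0247 to 0.274 over the alternatives). Ap4m1, which overlaps Mcm7 by 91 bases, was also lower (log2 fold change -0.57, edgeR adjusted p = 0.00511). Reads within those 91 bases cannot be told apart here because the strand of counting is not given. The effective length of Mcm7 was 1452 to 2215 bases.

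The remaining helicase subunits overlapped between the groups. Mcm2 had 10.7, 9.07 and 7.84 CPM in activated libraries and 11.0, 9.62 and 8.84 CPM in non-activated ones (log2 fold change -0.09, SE 0.16, edgeR adjusted p = 0.708), and Mcm4 had a log2 fold change of -0.20 (SE 0.12). The 6 subunits together summed to 145, 117 and 116 CPM in activated libraries, against 114, 110 and 115 CPM in non-activated ones. Activated replicate 1 had the highest sum, and the other 5 libraries lay close together. The sums did not overlap between the groups, though by a narrow margin. On TPM they did not overlap either, at 86.3, 72.6 and 73.6 TPM in activated libraries, against 63.2, 67.6 and 67.1 TPM in non-activated ones. The difference in these sums was not tested. On TPM, Mcm3 was the most abundant subunit in each activated library (37.3, 30.3 and 27.5 TPM, with Mcm6 at 17.2, 12.3 and 17.1 TPM). In each non-activated library Mcm6 was the most abundant (20.9, 23.9 and 24.2 TPM, with Mcm3 at 12.3, 12.7 and 12.5 TPM).

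**Figure D3:**
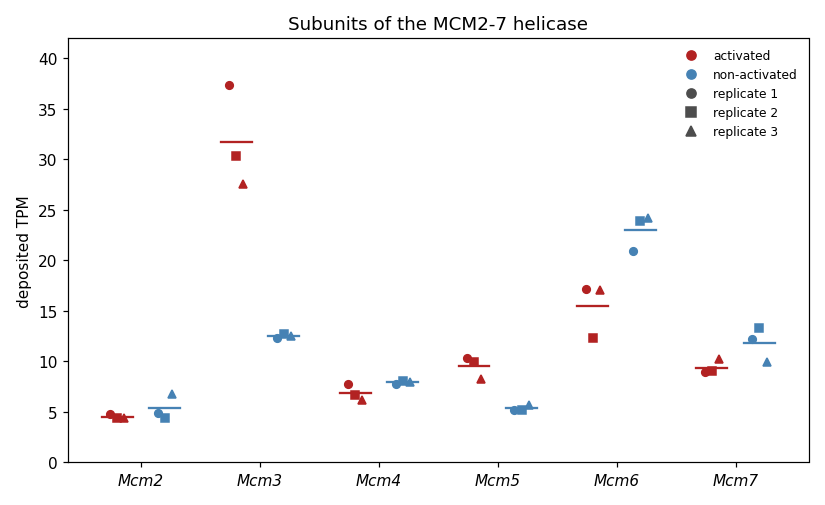
Deposited TPM of the 6 MCM helicase subunits in activated (red, left) and non-activated (blue, right) libraries; short lines are means of 3 libraries and symbols mark the replicate number. Mcm3 at 27.5 to 37.3 TPM leads in activated libraries and Mcm6 at 20.9 to 24.2 TPM leads in non-activated ones.

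Other S phase genes that rose were Uhrf1 and Tyms. Uhrf1, which reads hemimethylated DNA behind the fork and recruits Dnmt1, had 15.4, 19.0 and 17.4 CPM in activated libraries, against 6.32, 8.45 and 8.19 CPM in non-activated ones. It was 2.26-fold higher with no overlap (log2 fold change 1.18, SE 0.15, edgeR adjusted p = 0.000784). Tyms, the thymidylate synthase that makes dTMP, had 20.6, 16.3 and 18.3 CPM in activated libraries, against 12.9, 12.9 and 11.8 CPM in non-activated libraries. Its difference was 0.55 on the log2 scale of counts (SE 0.12, edgeR adjusted p = 0.00905) and 0.37 on log2(TPM + 1), where limma's adjusted p was 0.0735 (0.00262 to 0.121 over the alternatives).

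E2f2, one of the activating E2F factors, was the S phase gene that fell the most. It was scarce, with 0.855, 0.834 and 1.10 CPM in activated libraries, against 2.51, 3.74 and 2.03 CPM in non-activated ones. The groups did not overlap (log2 fold change -1.56, SE 0.32, edgeR adjusted p = 0.00819). These values rest on 67 reads in all in activated libraries (95% Poisson interval 51.9 to 85.1, counting error only) and 205 in non-activated ones (178 to 235). E2f1, its close relative, did not pass, with 14.9, 17.0 and 20.9 CPM in activated libraries, against 16.5, 16.3 and 17.4 CPM in non-activated libraries (edgeR adjusted p = 0.735).

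The replication clamp Pcna, abundant in both groups, had 105, 91.7 and 86.6 CPM in activated libraries and 117, 104 and 92.0 CPM in non-activated ones. These values overlapped (log2 fold change -0.14, SE 0.11, edgeR adjusted p = 0.391). Cdt1, a licensing factor, and the ribonucleotide reductase subunit Rrm1 had log2 fold changes of -0.11 (SE 0.14) and -0.04 (SE 0.11). The S phase subunit Rrm2 was much scarcer than Rrm1, at 0.892 ± 0.456 CPM in activated libraries, against 1.39 ± 0.206 CPM in non-activated libraries (SD, n = 3 each; log2 fold change -0.65, SE 0.44). The licensing factor Cdc6 was at 0.453 ± 0.232 CPM in activated libraries, against 0.544 ± 0.155 CPM in non-activated libraries, and on TPM the order turned round (0.567 TPM in activated libraries, against 0.307 TPM in non-activated ones). In all, 8 of the 15 S phase genes passed in neither direction.

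Of the 14 mitosis genes, 2 rose, 1 fell, 10 did not pass and Ccnb2 was too scarce to test. Mki67 (chr7:135689784-135716450), which encodes the Ki-67 protein that coats mitotic chromosomes and marks cycling cells, had 32.9, 41.9 and 31.1 CPM in activated libraries, against 17.1, 14.9 and 16.3 CPM in non-activated ones. The groups were separate and the rise was 2.19-fold (log2 fold change 1.13, SE 0.13, edgeR adjusted p = 0.000472). Tpx2, which targets Aurora A to spindle microtubules, had 16.1, 20.2 and 14.5 CPM in activated libraries, against 5.82, 8.49 and 8.35 CPM in non-activated libraries. It was 2.23-fold higher, again with no overlap (log2 fold change 1.16, SE 0.19, edgeR adjusted p = 0.00258).

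Top2a (chr11:98992947-99024199), the topoisomerase II alpha that untangles sister chromatids and is usually abundant in the same phases as Ki-67, fell. It had 8.36, 10.0 and 7.18 CPM in activated libraries, against 22.2, 28.1 and 26.4 CPM in non-activated ones. The highest activated library was below the lowest non-activated one, and the fitted level was 0.333 times that of non-activated cells (log2 fold change -1.59, SE 0.15, edgeR adjusted p = 0.000173). The calls of both Mki67 and Top2a were kept in every alternative run, including without both replicate 1 libraries. Beside these values, the T cell gene Lck had 5.17, 4.02 and 3.92 CPM in activated libraries, against 0.685, 1.22 and 1.09 CPM in non-activated ones. The summed Cd3e, Cd3d, Cd3g and Cd4 transcripts given above were likewise higher in each activated library. T cell markers did not all go this way. The 17 markers other than Trac and Trbc2 summed to 79.1, 48.9 and 49.1 CPM in activated libraries. Non-activated libraries had 40.1, 70.3 and 63.3 CPM, so these sums overlapped. Much of the non-activated sums came from Cd28, with 17.2, 42.3 and 38.4 CPM there, against 9.96, 22.6 and 19.2 CPM in activated libraries. Cd28, Thy1 and Tcf7 had lower mean CPM in activated libraries. The other markers of the 17 had higher means, though 8 of them were too low to test. Of 6 tested markers of activated helper T cells, 2 were higher (Il2 and Gata3) and 3 lower (Icos, Pdcd1 and Tnfrsf18). That is 83.3% called, against 27.6% of all tested genes. The 6 others of that list (Ifng, Ctla4, Cd40lg, Tbx21, Il21 and Il3) were too low to test. Each had a higher mean CPM in activated libraries and was highest in activated replicate 1, at no more than 1.52 CPM. Of the 3 tested progenitor markers, Kit and Gata2 were lower (log2 fold changes -1.05 and -1.71) and Cd34 was higher (2.27). The part of these cell types in the results for Mki67 and Top2a was not tested.

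The cyclins of mitotic entry were scarce. Neither they nor their kinase Cdk1 were called in the test without a replicate term. On TPM, Cdk1 had the highest mean of the 14 mitosis genes, 9.80 TPM. Cdk1 had 3.79, 5.84 and 4.90 CPM in activated libraries and 4.68, 6.13 and 7.54 CPM in non-activated ones (log2 fold change -0.34, SE 0.24, edgeR adjusted p = 0.33). Ccnb1, encoding cyclin B1, had 0.335, 1.13 and 0.408 CPM in activated libraries, against 0.799, 1.43 and 1.18 CPM in non-activated libraries (log2 fold change -0.89, SE 0.51, edgeR adjusted p = 0.236). Without activated replicate 2 it passed as lower (edgeR adjusted p = 0.0476; 0.0476 to 0.551 over the alternatives). Ccnb2 had between 0.0405 and 0.294 CPM in all 6 libraries, from 10 reads in activated and 11 in non-activated ones, so no difference was detectable at this depth.

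Ccna2, encoding cyclin A2, had 0.0743, 0.441 and 0.367 CPM in activated libraries, against 0.305, 1.51 and 1.54 CPM in non-activated ones. Replicate 1 was the lowest of its group in both, so the groups overlapped, and the test without a replicate term did not call it (log2 fold change -1.94, SE 0.74, edgeR adjusted p = 0.0868). With the replicate number as a block it passed as lower (edgeR adjusted p = 0.0096; 0.0096 to 0.281 over the alternatives). It also passed without non-activated replicate 1 (edgeR adjusted p = 0.0294). The estimate rests on 20 reads in activated (95% Poisson interval 12.2 to 30.9) and 82 in non-activated libraries (65.2 to 102).

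Genes of the spindle checkpoint and the chromosomal passenger complex did not pass in the test without a replicate term, though some alternatives called Bub1 higher and Aurkb lower. Bub1, a checkpoint kinase, had 6.58, 6.03 and 6.12 CPM in activated libraries, against 3.81, 1.30 and 4.26 CPM in non-activated ones. The groups did not overlap, but non-activated replicate 2 was low, and the edgeR adjusted p was 0.0801 (log2 fold change 1.00, SE 0.37), or 0.0243 with the replicate block (0.0243 to 0.612 over the alternatives); it also passed with DESeq2 (adjusted p = 0.0284) and with no filter on low counts. Aurkb, the kinase of the passenger complex, had 0.818, 0.981 and 1.35 CPM in activated libraries, against 2.51, 2.73 and 1.38 CPM in non-activated libraries. It also did not overlap, by a narrow margin in replicate 3 (log2 fold change -1.07, SE 0.36, edgeR adjusted p = 0.0575), and passed as lower with DESeq2 (adjusted p = 0.0379), with no filter or a stricter one and, with edgeR, when non-activated replicate 3 was left out (adjusted p = 0.0332; 0.0332 to 0.402 over the alternatives). Birc5 (survivin), Aurka, Bub1b, Plk1 and Cdc20 had log2 fold changes between -0.54 for Bub1b and 0.33 for Plk1, none past the threshold.

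Summed over all 14 mitosis genes, the groups had 74.3, 93.3 and 73.3 CPM in activated libraries, against 64.1, 73.4 and 76.0 CPM in non-activated libraries. Without Mki67, Top2a and Tpx2 the remaining 11 summed to 16.9, 21.2 and 20.5 CPM in activated libraries, against 18.9, 22.0 and 24.9 CPM in non-activated ones. Both sums overlapped between the groups, and in every library most of the summed CPM came from the 3 genes that changed. The median log2 fold change of the 13 tested genes was -0.34.

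**Figure D4:**
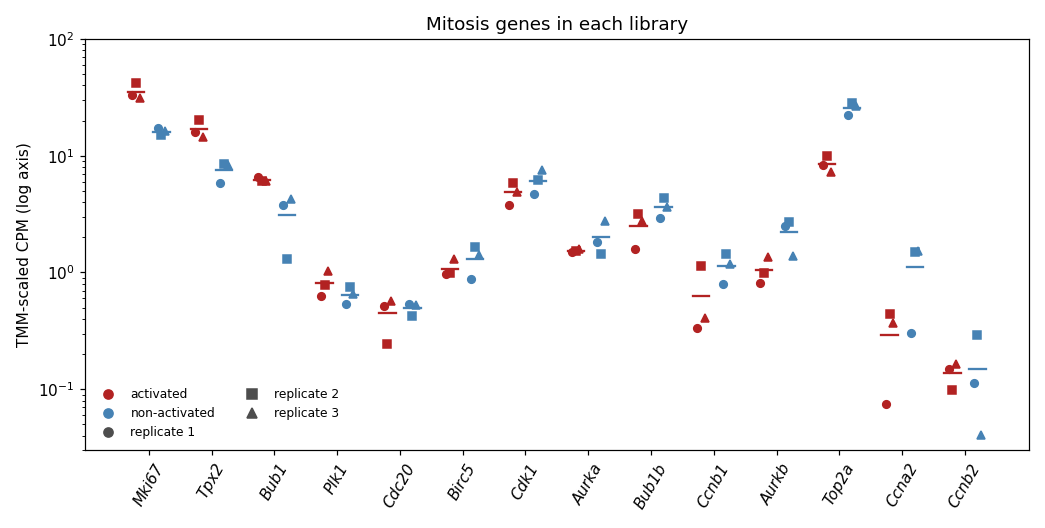
TMM-scaled CPM (log axis) of the 14 mitosis genes in activated (red, left) and non-activated (blue, right) libraries; short lines are means of 3 libraries and symbols mark the replicate number. Mki67, Tpx2 and Bub1 lie higher in all activated libraries, Top2a and Aurkb lie lower, and the cyclins Ccna2, Ccnb1 and Ccnb2 are near or under 1 CPM.

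Of the G1 cyclins and kinases, 5 of 7 were higher and 0 lower. That count was 4 without activated replicate 1, 3 without activated replicate 3 and 2 without activated replicate 2 or any one non-activated library and it was 1 (Cdk6) on TPM. Ccnd2 (chr6:127125162-127152188), encoding cyclin D2, had 1695, 1524 and 1722 CPM in activated libraries, against 392, 366 and 514 CPM in non-activated ones. The counts were 3.89-fold higher with a wide gap between groups (log2 fold change 1.96, SE 0.15, edgeR adjusted p = 6.02e-05). Its TPM values differed less and overlapped, at 497, 614 and 1147 TPM in activated and 382, 176 and 512 TPM in non-activated libraries.

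Those TPM values depend on the effective length that RSEM assigned to Ccnd2, which was 4858, 3621 and 2282 bases in activated libraries and 1455, 3063 and 1553 bases in non-activated ones. On log2(TPM + 1) the difference was 1.11 and limma's adjusted p was 0.138, while every alternative on counts kept the call (6.1e-42 to 0.252 over all alternatives). The lncRNA 9330179D12Rik, which overlaps Ccnd2 by 2800 bases, was higher too (log2 fold change 2.11, edgeR adjusted p = 0.0036) at no more than 2.60 CPM. Cyclin D2 made up most of the D cyclin RNA everywhere, with 93.1%, 94.6% and 95.4% of summed D cyclin TPM in activated libraries and 93.0%, 86.0% and 92.8% in non-activated ones.

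Ccnd1, encoding cyclin D1, was scarce by comparison, at 4.68, 5.54 and 10.2 CPM in activated libraries, against 1.22, 2.94 and 3.77 CPM in non-activated ones. The groups did not overlap, and the rise of 1.37 on the log2 scale (SE 0.43) barely passed (edgeR adjusted p = 0.0464). Ccnd3 had 32.3, 38.5 and 48.7 CPM in activated libraries, against 26.8, 28.0 and 30.7 CPM in non-activated libraries (log2 fold change 0.48, SE 0.15, edgeR adjusted p = 0.0401). Both calls held in only 1 of the 6 fits without 1 library, that without activated replicate 1. The other fits gave edgeR adjusted p values up to 0.169 for Ccnd1 and 0.113 for Ccnd3 (0.00201 to 0.251 and 0.00471 to 0.462 over the alternatives). Leaving out activated replicate 3, the highest library for both, gave 0.169 and 0.109 (edgeR adjusted p).

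The partner kinases of the D cyclins were higher as well. Cdk6 had 282, 301 and 277 CPM in activated libraries, against 163, 175 and 178 CPM in non-activated ones, with no overlap and a 1.67-fold rise (log2 fold change 0.74, SE 0.08, edgeR adjusted p = 0.000303). Cdk4 had 57.6, 59.1 and 54.2 CPM in activated libraries, against 47.5, 48.2 and 45.1 CPM in non-activated libraries. Its groups were separate but close (log2 fold change 0.28, SE 0.07, edgeR adjusted p = 0.0237), and of the 6 fits that left out 1 library, that without activated replicate 3 alone kept the call (0.038 to 0.102 in these, 0.01 to 0.359 over all alternatives). The pair that acts later, at the G1 to S transition, did not pass. Ccne1, encoding cyclin E1, had a log2 fold change of 0.21 (SE 0.16, edgeR adjusted p = 0.368), and Cdk2 had 21.0 ± 1.59 CPM in activated libraries, against 21.0 ± 0.629 CPM in non-activated libraries (SD, n = 3 each).

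The brakes on these kinases did not move together. Cdkn1a, the p53 target that encodes p21, had 758, 860 and 949 CPM in activated libraries, against 522, 586 and 568 CPM in non-activated ones. It was 1.53-fold higher with no overlap (log2 fold change 0.62, SE 0.11, edgeR adjusted p = 0.0043). Cdkn1b, encoding p27, had 107, 82.3 and 91.8 CPM in activated libraries, against 119, 96.6 and 112 CPM in non-activated libraries. It was lower in each of the 3 pairs of the same number but the groups overlapped (log2 fold change -0.22, SE 0.12, edgeR adjusted p = 0.199), and it passed with the replicate block (edgeR adjusted p = 0.0292) and without activated replicate 1 (0.0495; 0.0292 to 0.44 over the alternatives).

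Cdkn2c (chr4:109660876-109666756), encoding p18, which binds CDK4 and CDK6, fell to 0.632, 0.392 and 0.939 CPM in activated libraries, against 1.94, 1.97 and 2.31 CPM in non-activated ones. The groups were separate, at 0.320 times the non-activated level (log2 fold change -1.64, SE 0.36, edgeR adjusted p = 0.0105), from 48 reads in activated and 155 in non-activated libraries. Rb1, the pocket protein that D cyclin kinases phosphorylate, had 53.3, 53.1 and 46.2 CPM in activated libraries, against 72.9, 73.1 and 78.1 CPM in non-activated libraries. It was 0.681 times the non-activated level with no overlap (log2 fold change -0.56, SE 0.08, edgeR adjusted p = 0.00197). Lpar6, which lies within the span of Rb1, was also lower (log2 fold change -0.98, edgeR adjusted p = 0.00308). It had 19.9 to 30.2 CPM in activated libraries, against 46.1 to 57.7 CPM in non-activated libraries. This overlap is of whole gene spans with introns, and whether the 2 genes share reads was not tested.

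**Figure D5:**
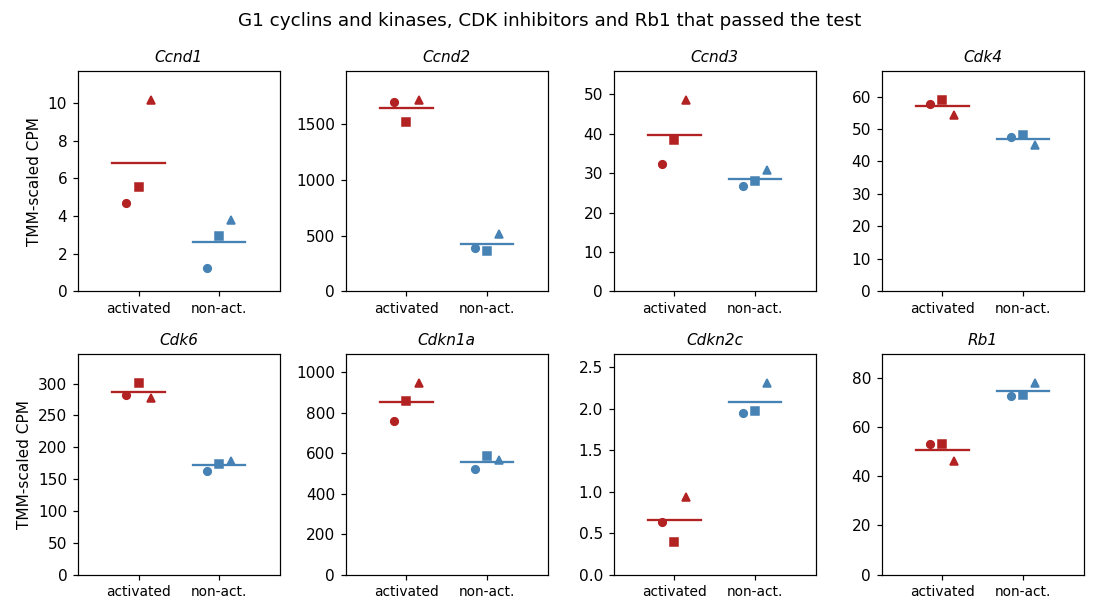
TMM-scaled CPM of the 5 G1 cyclins and kinases, the CDK inhibitors Cdkn1a and Cdkn2c and Rb1, all of which passed the test, in activated (red, left) and non-activated (blue, right) libraries; each panel has its own axis from 0, lines are means of 3 libraries and symbols mark the replicate number. The 3 D cyclins, Cdk4, Cdk6 and Cdkn1a are higher in all activated libraries, and Cdkn2c and Rb1 are lower.

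Further genes of the same pathways were called about as often as genes in general. Of 52 other replication genes 51 were tested, and 6 were higher and 6 lower (23.5% called, median log2 fold change -0.12). The flap endonuclease Fen1 (log2 fold change 1.01), the dUTPase Dut (0.99), the origin recognition subunit Orc1 (0.94) and the DNA polymerase delta subunit Pold2 (0.51) were among the higher ones. The checkpoint adaptor Clspn (-1.59), the GINS helicase subunit Gins3 (-1.45), the DNA ligase Lig1 (-0.80), the licensing inhibitor Gmnn (-0.61) and the catalytic polymerase delta subunit Pold1 (-0.41) led the lower ones. For Pold1, 3 of the 6 fits that each leave out 1 library (activated replicate 2, or replicate 1 or 3 of the non-activated group) ended the call, with edgeR adjusted p up to 0.0841. Nor was it called on TPM, or when replicate 1 of each group was left out (adjusted p = 0.0557 by edgeR, in a range over the alternatives of 0.00618 to 0.181). Gins3 had 8.47, 7.46 and 8.74 CPM in activated libraries, against 23.3, 21.7 and 22.6 CPM in non-activated ones (SE 0.11, edgeR adjusted p = 5.68e-05).

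Of 50 other mitosis genes 46 were tested, with 5 higher and 6 lower (23.9% called, median -0.22). The transcription factor Mybl2 (log2 fold change 1.81), the kinases Melk (1.62) and Ttk (1.56), Cdca2 (1.21) and the cytokinesis exchange factor Ect2 (1.06) led the higher ones. The lower ones were led by Cenpa (-3.29), the phosphatase Cdc25b (-1.17), the kinetochore protein Ndc80 (-1.13), the kinesin Kif23 (-1.06) and Cdca8 (-0.72). Cenpa, the histone H3 variant of centromeres, fell to 13.7, 11.0 and 10.8 CPM in activated libraries, against 119, 110 and 118 CPM in non-activated ones. Its 0.103-fold level (SE 0.11, edgeR adjusted p = 1.99e-06) was a larger change than that of any of the 39 members tested.

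Of 31 other G1, E2F and inhibitor genes 28 were tested, with 4 higher and 2 lower (21.4% called, median 0.02). With the replicate block 8 were higher and 3 lower, as Rbl1, E2f5, E2f8, Myc and, in the lower direction, Lin54 also passed. The higher ones were E2f3 (log2 fold change 0.77), an activating E2F, the DREAM complex subunits Lin9 (0.54) and Lin37 (0.36), and Trp53 (0.35), which encodes p53. The lower ones were Rbl2 (-0.54), encoding the Rb relative p130, and Mnat1 (-0.44), a subunit of the CDK-activating kinase. E2f3 had 19.0, 21.1 and 20.0 CPM in activated libraries, against 11.3, 13.5 and 10.5 CPM in non-activated ones, and Rbl2 had 78.5, 68.2 and 71.1 CPM in activated libraries, against 112, 98.9 and 105 CPM in non-activated ones. Of the 29 calls in these 3 lists, 15 were kept whichever library was left out, among them those of Fen1, Dut, Pold2, Gins3, Lig1, Mybl2, Melk, Ttk, Ect2, Cenpa, E2f3, Rbl2 and Mnat1. The block also added Orc3, Ncapg and Hmgb2 as lower in the other 2 lists. The lists together had 15 higher and 14 lower genes, but 9 and 8 without non-activated replicate 1, 8 lower without either of the other non-activated libraries, and 9 and 7 without both replicate 1 libraries.

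Depth and counting limit what can be read from single members. The 6 libraries listed 18803 to 19604 genes above 0, and the common biological coefficient of variation was 16.9%. Of the 40 members, 14 overlap another annotated gene, judged by whole gene spans with introns. RSEM split counts between features for 19 members, and 17 had effective lengths that differed more than 1.5-fold between libraries. The mitochondrial share of counts was 1.81% to 2.12% for the activated group, against 2.20% to 2.57% for the non-activated group.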

How the data were processed

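Bulk RNA-seq libraries of mouse bone marrow-derived dendritic cells (3 activated, 3 non-activated) were analysed. Per the labels' protocols, 200 ng of total RNA went into each NEBNext Ultra library and single reads of 60 nt were sequenced; for strand, nothing is given in the sources used here. The authors deposited 1 gene table per library with estimated counts, which RSEM calls expected counts, and effective lengths, per the file headers; reads that match several genes are shared among them in fractions, which leaves genes with near copies uncertain. The deposited TPM values are, per the file headers, those counts divided by effective length and scaled to a common total, so a change of transcript mix moves TPM and counts apart. The submitters' processing notes name GRCm38, CASAVA, bcl2fastq, FastQC and cutadapt with no versions or roles; no RNA aligner is given in the sources used here. The file names carry the name of a human genome build, although the gene identifiers are mouse ones.

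After rounding to integers, counts entered the quasi-likelihood test of edgeR 4.0.16 (R 4.3.3) with TMM scaling and group as the only term (13946 genes passed filterByExpr; Benjamini-Hochberg over all tested genes, threshold 0.05). The SE is the log2 fold change divided by the root of F. CPM values are TMM-scaled; TPM was tested with limma 3.58.1 after adding 1. Poisson intervals (95%) cover counting error only. The script was tested on simulated counts. Alternatives were DESeq2 1.42.0, other size factors and filters, TPM, each library left out in turn and the replicate number as a block. Leaving out both replicate 1 libraries was added after seeing Trac in them. Replicates within groups differed by more than sampling noise.

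Same-numbered libraries deviated together from their group means (correlations 0.398, 0.313 and 0.187, against -0.315 to 0.0402 for other pairs), which is taken as pairing by number, although no label explains the numbers. The main test has no term for this pairing, whereas the replicate block does. Members and gene lists were chosen with earlier results of these data known. Per-library values are given for members past the threshold, for those without overlap and for a fixed set of cycle regulators; from each other list, up to 5 genes a direction were named by size of change. One gene that this rule would name is not reported here.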

Additional observations from a re-analysis of the deposited data

How the results depend on the processing

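Across the 15 alternatives, 569 single-member values were computed and no called member reversed: 506 kept their side of the threshold, 15 newly passed and 48 no longer passed. Of the 18 calls, 7 were kept in every alternative (Mcm3, Uhrf1, Mki67, Top2a, Cdk6, Cdkn2c and Rb1) and 13 without any one library. With the replicate block 13 members were higher and 8 lower, and 2787 and 2397 of all genes. The block ended no call in any list. It added Ccna2, Bub1 and Cdkn1b among the members and, elsewhere, those named in the text and Klrk1, which was lower. On TPM with a pseudocount of 0.1 and a mean filter, 1390 genes were higher and 1053 lower (members 7 higher; other pathway genes 8 and 7). With a pseudocount of 1 and the filter these were 1379 and 1038 (7; 8 and 6), and with no filter 1163 and 719 (members 5 and 3; other pathway genes 5 and 7). Leaving out 1 library gave 1061 to 1673 lower genes in all, the fewest without non-activated replicate 2, against 1632 with every library, and 9 to 13 higher and 8 to 13 lower other pathway genes, against 15 and 14. Without both replicate 1 libraries those lists had 9 higher and 7 lower. The smaller number of libraries is part of these fits; for TPM the cause was not tested. Depth limits the mitosis genes most, 5 of which average under 1 TPM.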
